A study of Daphnia magna with 3 samples.

Results

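The circadian clock genes of the water flea Daphnia magna were taken as the gene records whose deposited database description names a clock protein. Of the 10 phrases searched, those for period, timeless, Clock (as circadian locomoter output), cycle, vrille and casein kinase I found records, and the other 4 ("clock" itself, doubletime, jetlag and PAR domain protein 1) found none. The search returned 22 of the 47109 records of the table, of which 17265 carry a description, and these 22 lie at 17 separate places in the genome. They comprise 3 records of Clock, 1 of cycle, 1 of period, 8 of the timeless type, 1 of a TIMELESS-interacting protein, 1 of vrille, 4 of casein kinase I and 3 of casein kinase II. The casein kinase II records entered only because the phrase for casein kinase I begins their name too.

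RNA was measured in 3 libraries of a single group, so no treatment or genotype is contrasted. Each library came from the whole bodies of 5 pooled wild-type females of the clonal NIES strain, 12 days old, at the release of their second clutch, with the brood chamber emptied of eggs and with plentiful algal food. The study used these libraries as its reference for starved animals and for mutants of DNMT3.1, which were not analysed here. Its cultures were kept under a cycle of long days and short nights, and no source used here gives the hour at which animals were frozen. The libraries therefore describe the level of clock transcripts in fed adults and not their rhythm.

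In animals, the circadian clock is a delayed negative feedback. The basic helix-loop-helix PAS proteins CLOCK and CYCLE (called BMAL1 in vertebrates) bind DNA as a pair and activate the genes of their own repressors, which are PERIOD with TIMELESS in Drosophila and PERIOD with cryptochrome in mammals. Casein kinase I, the product of doubletime in Drosophila, phosphorylates PERIOD and sets the pace of its breakdown, and a second loop runs through the basic leucine zipper proteins vrille and PAR domain protein 1. Daphnia are known for daily vertical migration in lakes. Arthropods can also carry timeout, the counterpart of mammalian TIMELESS, which works at the DNA replication fork, and the descriptions do not separate timeless from timeout.

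Gene records received 8843488, 8679171 and 9092389 counts in replicates 1, 2 and 3. A count of 0 allows a level of up to 0.354, 0.353 and 0.309 CPM (counts scaled to the size of the library, with the trimmed mean of M-values, TMM), taken as 3 counts, a limit that covers counting error only. In the study each treatment was run anew for every sample of a triplicate, and this triplicate, prepared elsewhere, is said to follow the same methods. No label ties a library to its culture, so the spread between libraries may be partly technical. In 4.19% of the 8976 records averaging 10 CPM or more, 1 library was 2-fold or further from both others, most often replicate 1 on the low side (209 records). Records matched by marker words of several organs were present. Their counts stand beside 42.3% of all records and 65.5% of described ones found in all libraries. Of the opsin and arrestin records 42 of 71 were found in all libraries and 14 in none (summed level 960 to 1132 TPM, the deposited abundance per transcript length). Of the records matched by neuronal words 18 of 25 were found in all and 1 in none (127 to 158 TPM). These words also matched extended synaptotagmin-2 (23.6 TPM), CUGBP Elav-like records and synaptotagmin-like protein 4, which were kept in that sum and need not be neuronal. Of the muscle myosin and troponin records, leaving out a non-muscle myosin and myosin 95F that the words also matched, 9 of 14 were found in all libraries and 3 in none (summed level 1508 to 1567 TPM). The ovary and yolk list varied most, with 23 of 26 in all libraries, 1 in none, and a summed TPM of 72390, 84920 and 44505. In such pools, fewer cells that use a gene and less RNA of it per cell cannot be told apart.

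Most clock records were detectable in these animals. Of the 22 records, 20 had counts in at least 1 library, beside 61.1% of all records and 76.0% of described ones. In all libraries 17 were found, beside 42.3% of all records and 65.5% of described ones. The 2 records without any count were short first parts of split gene models, of casein kinase I isoform X5 and of casein kinase II alpha, whose second parts were abundant. The 22 records together took 7549, 6579 and 7086 counts, or 0.0854%, 0.0758% and 0.0779% of each library. Casein kinases I and II together held 62.0%, 60.2% and 61.1% of these counts. Much of that share lay on casein kinase II, which entered by its name only. Its beta subunit had 1340, 1129 and 1321 counts and the second part of alpha 1092, 1027 and 1218. The share therefore does not weigh casein kinase I against the transcription factors and repressors of the clock. The median level of the 17 records found in all libraries was 11.3 TPM, beside 6.25 TPM over all records found in all libraries and 10.9 TPM over described ones.

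**Figure D1:**
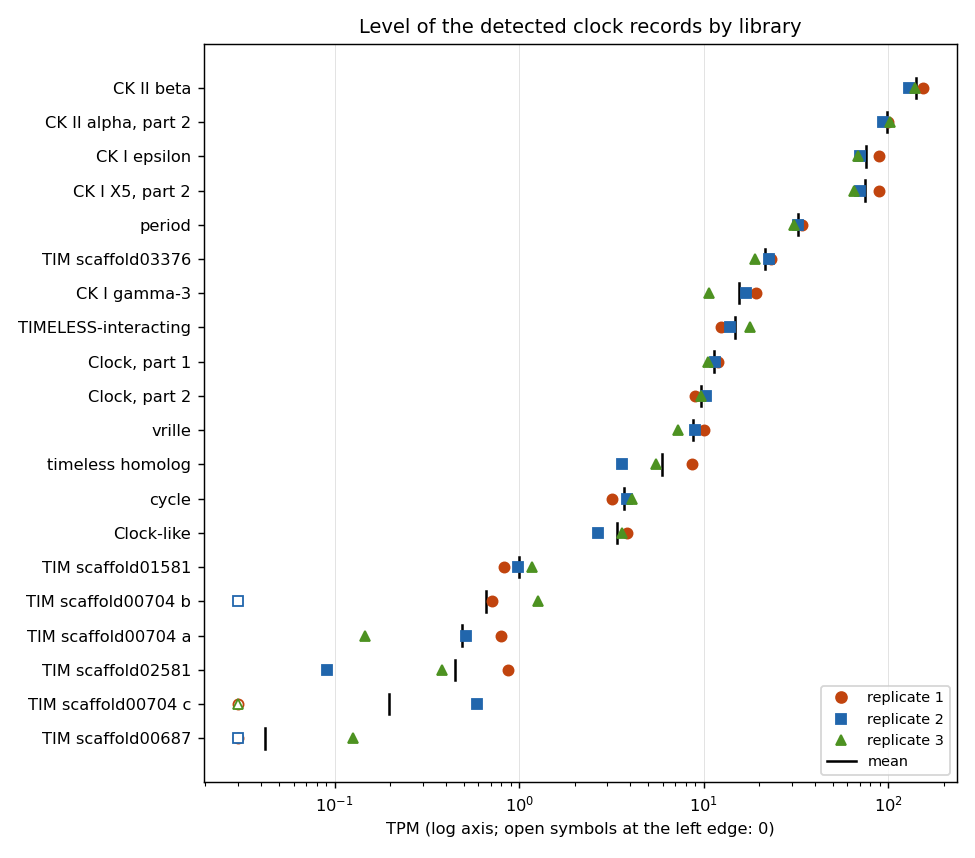
Level in TPM, per transcript length, of the 20 clock records with counts in at least 1 library, on a log axis. Each symbol is a library, bars are means of the 3 libraries, and open symbols at the left edge stand for 0. The casein kinases lie highest (casein kinase II beta at 141 TPM), period leads the other records at 32.4 TPM, and 6 TIMELESS/TIM-1 records at the bottom lie under 1 TPM on average.

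The order of levels is shown in the plot of level by library. The casein kinases II beta, II alpha, I epsilon and I X5 lay between 74.8 and 141 TPM. Below them came period, the main timeless-type record, casein kinase I gamma-3, the TIMELESS-interacting protein, Clock, vrille, the protein timeless homolog, cycle and the Clock-like record, in a series from 32.4 down to 3.38 TPM. The remaining TIMELESS/TIM-1 records were at or below 0.996 TPM. Between neighbours in this order, the ranges over the libraries overlapped in 12 of 19 pairs. They did not overlap from casein kinase II beta to II alpha, from II alpha to I epsilon, from I X5 to period, from period to the main timeless-type record, from the TIMELESS-interacting protein to Clock part 1, between both Clock parts, and from the Clock-like record to TIM on scaffold01581.

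The positive arm was expressed at low to middling levels, and none of its searched records varied beyond counting. Their counts were too few to resolve small differences between libraries. Clock, the activator that pairs with cycle, is described as circadian locomoter output cycles protein kaput and stands in the table as a split model on scaffold00547 (minus strand). Its longer part (242939 to 246618, 2212 bases of transcript) had 196, 189 and 187 counts, or 12.0, 11.5 and 10.5 TPM in replicates 1, 2 and 3. Its shorter part (242022 to 243070, 919 bases) had 61, 70 and 72 counts, or 8.98, 10.2 and 9.72 TPM. The parts did not peak in the same library, and the spread of either was close to that of counting alone: the CPM of the longer part had a coefficient of variation (CV) of 9.40%, where counting gives 7.24%. Weighted by length over 3131 bases, Clock stood at 10.8 ± 0.490 TPM (SD, n = 3). In the test of variation used throughout (chi-square test of homogeneity of the counts, Benjamini-Hochberg over 15516 records), the longer part gave an adjusted p of 0.238 and the shorter one of 0.765.

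A further record, described as Clock-like (scaffold02452, 984961 to 993988, minus strand), lay near the level of cycle. It had 67, 47 and 68 counts, or 3.85, 2.69 and 3.59 TPM, lowest in replicate 2, and a mean of 3.38 ± 0.611 TPM (SD, n = 3). Its libraries did not differ beyond counting in the chi-square test of homogeneity (adjusted p = 0.231). The table does not say whether it is a second gene or a diverged copy.

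Cycle, the partner of Clock and the arthropod counterpart of BMAL1, lay below Clock. Its record (scaffold03242, 89931 to 112028, minus strand, 2980 bases) had 70, 85 and 98 counts, or 3.18, 3.84 and 4.08 TPM, with a mean of 3.70 ± 0.467 TPM (SD, n = 3). Its CV of 10.9% equalled that of counting, and the chi-square test of homogeneity found no difference between libraries (adjusted p = 0.456). The same strand carries an almost coextensive record named aryl hydrocarbon receptor nuclear translocator-like protein 1 (89887 to 111840), which is the vertebrate name of the same protein. That record had 38, 60 and 39 counts and was highest in replicate 2 (adjusted p = 0.0211, chi-square test of homogeneity). Cycle held 64.8%, 58.6% and 71.5% of the counts of both, so the division of reads between them is uncertain, and their sum was 5.54 ± 0.778 TPM (SD, n = 3).

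Period was the most abundant of the searched records outside the casein kinases and differed little between libraries. PERIOD is the repressor whose build-up and breakdown time the cycle. Its record (scaffold02670, 3877 to 9137, plus strand, 4491 bases) had 1130, 1079 and 1122 counts, or 34.0, 32.3 and 31.0 TPM, and a mean of 32.4 ± 1.52 TPM (SD, n = 3), above 82.6% of the records found in all libraries. The libraries lay within 1.15-fold of each other in CPM. At 1079 to 1130 counts a library the test resolved even this difference (CV of 7.19% against 3.00% from counting, adjusted p = 0.00625, chi-square test of homogeneity). The call was lost without replicate 1 (adjusted p = 0.0841) and without replicate 3 (adjusted p = 0.387). Its overlap is with a record that has no counts.

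Of the 8 timeless-type records, 1 carried most of the signal. TIMELESS binds PERIOD in Drosophila and is degraded by light there. The record on scaffold03376 (43988 to 53610, minus strand, 4380 bases), described as a putative TIMELESS/TIM-1 protein, had 748, 737 and 670 counts, or 23.1, 22.6 and 18.98 TPM. It was lowest in replicate 3, with a mean of 21.6 ± 2.25 TPM (SD, n = 3). It held 69.9%, 83.7% and 72.7% of all counts on timeless-type records. Its CPM differed 1.28-fold between libraries, beyond counting (adjusted p = 8.32e-06, chi-square test of homogeneity), and no longer so without replicate 3 (adjusted p = 0.821).

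The other 6 records named TIMELESS/TIM-1 were rare. The one on scaffold01581 (1529377 to 1534267, plus strand), which overlaps no other record, had 20, 24 and 31 counts (0.996 ± 0.175 TPM, SD, n = 3) and did not vary beyond counting in the chi-square test (adjusted p = 0.640). Scaffold00704 carries 3 overlapping records between 85390 and 93758 on the plus strand, within neurexin-1-like on the minus strand, which had 154, 324 and 259 counts. The first of them (85390 to 93690) had 20, 13 and 4 counts, the second (89242 to 93758) 19, 0 and 37, and the third (91819 to 92335) 0, 2 and 0. The first and the second thus ran in opposite order in replicates 1 and 3, and their reads cannot be assigned with certainty.

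Together the 3 records of scaffold00704 had 39, 15 and 41 counts, lowest in replicate 2. The chi-square test called the first (adjusted p = 0.00466) and the second (adjusted p = 6.84e-07), but the first call was lost without replicate 3 (adjusted p = 0.357) and the second without replicate 2 (adjusted p = 0.115). The record on scaffold02581 (945407 to 950090, plus strand) had 19, 2 and 9 counts, and its call (adjusted p = 0.00111, chi-square test) was lost without replicate 2 (adjusted p = 0.0507). It lies among a record of the homeobox gene isl-1 (20, 14 and 17 counts) and one of a phosphate cotransporter (4, 5 and 7 counts) on the same strand. The record on scaffold00687 (741665 to 744464, plus strand), TIMELESS/TIM-1-like by its description, had 0, 0 and 1 count, at the limit of detection.

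The record described as protein timeless homolog differed most between libraries among the clock records above 10 CPM. It spans 684025 to 707802 of scaffold02994 (minus strand, 3835 bases) and had 244, 103 and 170 counts, or 8.60, 3.61 and 5.50 TPM. Replicate 1 was highest and replicate 2 lowest, 2.38-fold apart in CPM, around a mean of 5.91 ± 2.52 TPM (SD, n = 3). The difference exceeded counting (CV of 43.7% against 7.62%, adjusted p = 1.22e-13, chi-square test of homogeneity), and the call held when any 1 library was left out. The TIMELESS-interacting protein, which in mammals binds TIMELESS at replication forks (scaffold00005, 588228 to 589455, plus strand), did not follow it: its 87, 98 and 136 counts, or 12.4, 13.9 and 17.8 TPM, were lowest in replicate 1 and did not differ beyond counting (adjusted p = 0.103, chi-square test).

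**Figure D2:**
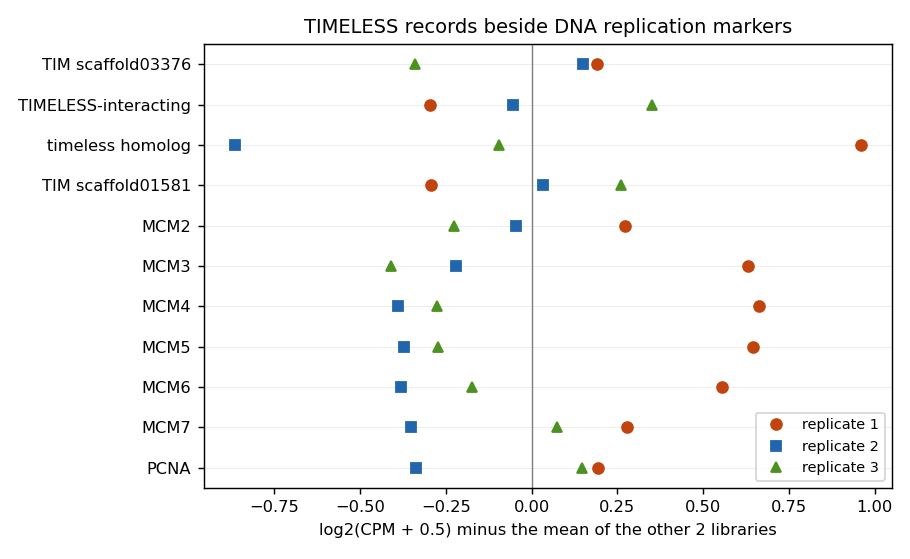
Deviation of each library from the other 2, as log2(CPM + 0.5) minus their mean, for 4 TIMELESS-related records and for the 7 markers of replicating cells. The 7 markers are highest in replicate 1, as are the timeless homolog (0.96) and TIM on scaffold03376 (0.19). The TIMELESS-interacting protein and TIM on scaffold01581 are lowest there.

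Markers of replicating cells moved in the direction of the timeless homolog (the plot of TIMELESS records beside replication markers). The list holds PCNA, the sliding clamp of DNA polymerase, and the helicase subunits MCM2 to MCM7. All 7 were found in all libraries and none was at 0, all 7 were highest in replicate 1, and 5 of 7 were lowest in replicate 2. Their summed level was 206, 144 and 168 TPM and their median deviation was 0.55, −0.35 and −0.23 on the log2 scale, where the timeless homolog deviated by 0.96, −0.86 and −0.09. All 7 varied beyond counting in the chi-square test, beside 54.5% of all tested records. All 7 lay above the mean of the others in replicate 1, beside 51.8% of all records. Being highest in replicate 1 was not particular to the timeless homolog. Of the 18 clock records averaging 1 CPM or more, 13 were highest there and 4 lowest. Above the mean of the others there lay 14 of the 18, beside 51.8% of all records. The share of all records highest or lowest in a given library was not computed. Casein kinase II beta, the Clock-like record and TIM on scaffold02581 also had the order of libraries of the timeless homolog. The part of replicating cells in the level of the timeless homolog was not tested.

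Vrille, a repressor of Clock in Drosophila, was expressed near the level of Clock. Its record (scaffold03297, 73750 to 76312, minus strand, 2563 bases) overlaps no other and had 190, 170 and 150 counts, or 10.03, 8.92 and 7.26 TPM. Replicate 3 was lowest, 1.45-fold under replicate 1 in CPM, and the mean was 8.74 ± 1.39 TPM (SD, n = 3). The difference exceeded counting (CV of 18.4% against 7.67%, adjusted p = 0.00595, chi-square test of homogeneity). It did so no longer without replicate 1 (adjusted p = 0.0672) or without replicate 3 (adjusted p = 0.424).

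Casein kinase I, the family of doubletime, was represented by 4 records, of which the 2 most abundant exceeded its substrate period per length. The epsilon isoform, a mammalian counterpart of doubletime (scaffold00642, 103398 to 105382, minus strand), had 1171, 921 and 981 counts, or 89.3, 69.8 and 68.6 TPM. The second part of isoform X5 (scaffold00311, 697892 to 700823, minus strand) had 815, 652 and 652 counts, or 88.7, 70.6 and 65.1 TPM. Both were highest in replicate 1, with means of 75.9 ± 11.6 and 74.8 ± 12.4 TPM (SD, n = 3). Both varied beyond counting (adjusted p = 1.03e-12 and 1.40e-10, chi-square test of homogeneity) and ceased to without replicate 1 (adjusted p = 0.263 and 0.0554).

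Opposite-strand records overlap both kinases, and the strand setting of the counting is not given. Over epsilon lies RNA-binding protein 28, with 939, 512 and 838 counts, and over X5 an undescribed record with 388, 321 and 218. The gamma-3 isoform, of the membrane-bound branch of the family (scaffold03124, 123341 to 128278, plus strand), overlaps only sparse records and had 260, 231 and 159 counts, or 19.1, 16.9 and 10.7 TPM. It was lowest in replicate 3, 1.87-fold under replicate 1 in CPM, with a mean of 15.6 ± 4.34 TPM (SD, n = 3). Its variation (adjusted p = 4.32e-09, chi-square test) was lost without replicate 3 (adjusted p = 0.305).

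Casein kinase II, which phosphorylates PERIOD and TIMELESS in Drosophila among very many other substrates, held the highest levels of all records searched. The regulatory beta subunit (scaffold02852, 246252 to 248117, plus strand) reached 154, 129 and 140 TPM and the second part of the catalytic alpha subunit (scaffold00944, 717973 to 720155, minus strand) 99.7, 93.2 and 102 TPM. Beta was highest in replicate 1 and varied beyond counting (adjusted p = 3.74e-05, chi-square test), which ended without that library (adjusted p = 0.705). Alpha differed 1.07-fold in CPM and did not (CV of 3.24% against 3.00% from counting, adjusted p = 0.406).

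To set the partners of the loop against each other, their TPM was compared within each library, since only values per length are comparable between genes. Each partner was the most abundant record of its role. Clock exceeded cycle by 1.59 ± 0.27 on the log2(TPM + 0.1) scale (SD, n = 3), or 3.02-fold, with 1.88, 1.56 and 1.34 in the respective libraries. Period exceeded Clock by 1.51 ± 0.04 (2.85-fold) and the main timeless-type record by 0.59 ± 0.10 (1.51-fold). Casein kinase I epsilon exceeded period by 1.21 ± 0.15 (2.32-fold) per length, though not in CPM (−0.12), and cryptochrome 2 lay below period by 1.17, at −1.17 ± 0.08 (0.443-fold). Each of these 5 orders was the same in 3 of 3 libraries.

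**Figure D3:**
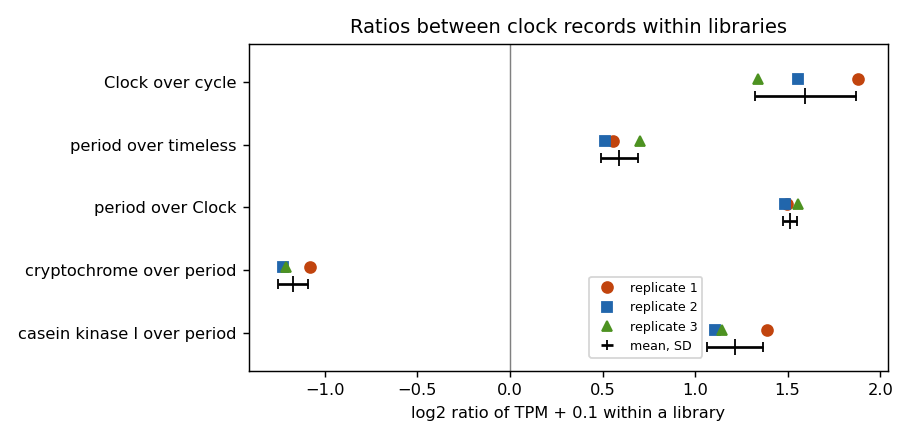
Ratios between partners of the clock within each library, as the difference of log2(TPM + 0.1), with the mean and SD of the 3 libraries below the symbols. Period lies above Clock by 1.51 with the smallest SD (0.04), cryptochrome lies below period (−1.17), and Clock over cycle spreads most (1.34 to 1.88).

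The exact permutation test used, which flips the sign of each library and is two-sided, cannot give less than p = 0.25 with 3 libraries, and it gave that value for each of the 5 ratios (adjusted p = 0.25). The sizes depend on which records stand for a gene. Clock taken over both parts exceeded cycle taken with its overlapping record by 0.96 ± 0.21. Period exceeded the protein timeless homolog by 2.52 ± 0.58, but the sum of all timeless-type records by only 0.11 ± 0.12, with period the lower of the pair in replicate 1 (34.0 against 34.9 TPM). Over the sum of the Clock records, parts of 1 model included, the excess of period was 0.41, and over period the sum of the casein kinase I records stood at 2.34.

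Variation between libraries was found in most of the clock records tested, as in most of all records tested. Of the 18 that averaged 10 counts or more, 11 varied beyond counting and 7 did not, beside 54.5% of all tested records and 56.2% of described ones. Of all 22 clock records, 19 overlap another record (74.0% of the table), 17 of them a record that has counts. The biological coefficient of variation (BCV) is the spread between replicates beyond counting as estimated by edgeR. It had a median of 0.246 over 18 clock records and of 0.263 over all records, and 11 clock records lay below the latter. With 3 libraries, edgeR draws the value of each record toward those of other records, so it is not that record's spread alone. Casein kinase II alpha, for example, had a BCV of 0.184 at a CV of 3.24%. The nearness of both medians is thus partly built in. None of the 11 clock records averaging 10 CPM or more had a library 2-fold apart from both others, beside 4.19% of all such records. At 1.5-fold, casein kinase I gamma-3 and the timeless homolog did, 2 of 11 beside 16.9%.

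**Figure D4:**
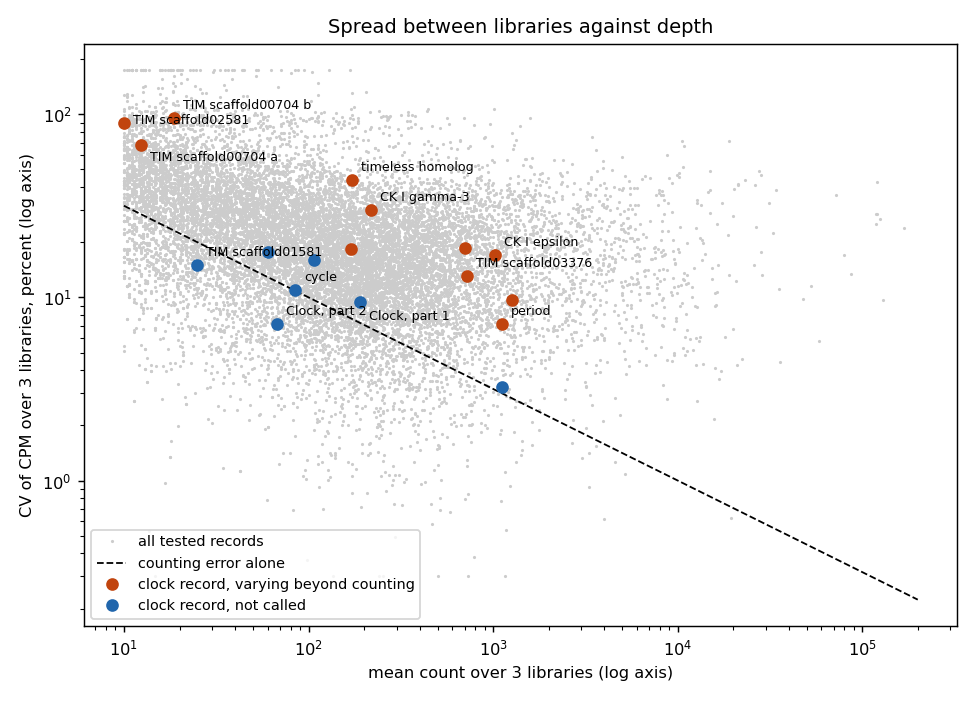
Coefficient of variation of CPM over the 3 libraries against the mean count, both on log axes, for the 15516 tested records (grey) and the 18 clock records tested (red where varying beyond counting, blue where not). The dashed line is the CV that counting alone gives. Period, at a CV of 7.19%, lies above the line and is called, while cycle, at 10.9%, lies on it and is not.

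The test follows depth: the plot of CV against count shows records such as cycle and Clock part 1 with larger relative spread than period but too few counts to tell it from counting. At the depth of cycle, a difference as small as that of period was not detectable. The calls also changed with the libraries included, with 4 of 16 records called without replicate 1 (beside 29.0% of all tested), 9 of 18 without replicate 2 (45.0%) and 5 of 17 without replicate 3 (38.6%). Of the 11 records called, 10 lost the call under at least 1 alternative, and only the timeless homolog kept it under every one tried.

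The clock records were on balance somewhat higher in replicate 1. Of the 18 that averaged 1 CPM or more, 13 were highest in replicate 1, 1 in replicate 2 and 4 in replicate 3, and 8 were lowest in replicate 3. The share of all records highest or lowest in each library was not computed, so these counts lack a background. Replicate 1 lay above the mean of the others in 14 of 18 (51.8% of all records), replicate 2 in 9 (51.0%) and replicate 3 in 7 (51.7%). The median deviation was 0.28, −0.01 and −0.09 on the log2(CPM + 0.5) scale in replicates 1, 2 and 3, beside 0.02, 0.01 and 0.02 over all records. The records that went the other way, lowest in replicate 1, were the TIMELESS-interacting protein, cycle, Clock part 2 and TIM on scaffold01581. None of them was called as varying. For the 11 clock records averaging 10 CPM or more, the median deviation was 0.23, −0.06 and −0.23 in replicates 1, 2 and 3. Over all such records it was 0.08, −0.01 and −0.03. Restricted to the 3 records that overlap no other, the median deviation was −0.29 in replicate 1 and 0.26 in replicate 3. These are the TIMELESS-interacting protein, TIM on scaffold01581 and vrille. Vrille alone of these was called, and it was highest in replicate 1. The direction was thus not shared by every clock record.

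**Figure D5:**
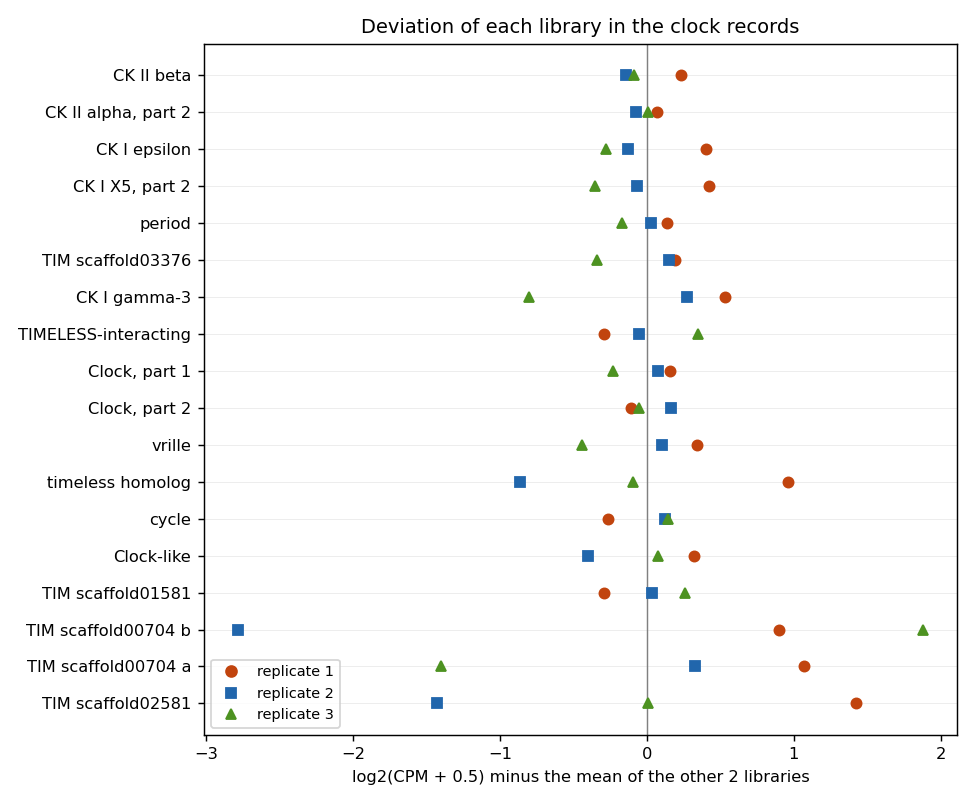
Deviation of each library from the mean of the other 2, as log2(CPM + 0.5), for the 18 clock records averaging 1 CPM or more, ordered by TPM. Replicate 1 lies right of 0 in 14 of 18 records and replicate 3 in 7, and the rare TIMELESS/TIM-1 records at the bottom spread widest.

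Other genes of the pathway were read from lists matched by description, whose counts stand beside 42.3% of all records found in all libraries and 54.5% of tested records varying. Of 4 cryptochrome and photolyase records, 3 were found in all libraries and 1 of 3 tested varied. Cryptochrome 2, by name the light-insensitive repressor of mammals (scaffold00687, 469842 to 473438, minus strand), had 278, 240 and 252 counts (14.4 ± 1.45 TPM, SD, n = 3), highest in replicate 1 (adjusted p = 0.0434, chi-square test). The DNA repair enzyme 6-4 photolyase stood at 7.69 ± 1.26 TPM and cryptochrome DASH at 6.69 ± 0.524 TPM (SD, n = 3), neither called.

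Of 4 further records matched by names of basic leucine zipper proteins and nuclear receptors, 3 were tested and all 3 varied. Whether they take part in a clock loop in Daphnia was not tested. Hepatic leukemia factor, of the same PAR family as Drosophila PAR domain protein 1, was the most abundant at 87.1 ± 10.3 TPM (SD, n = 3). It had 1034, 1040 and 1374 counts and was highest in replicate 3, where vrille was lowest (adjusted p = 0.000413, chi-square test). The ecdysone-induced receptor E75 had 474, 610 and 479 counts (13.3 ± 2.31 TPM), and HR3, a nuclear receptor of the molting cascade, had 0, 39 and 7 (adjusted p = 5.22e-13). Both were highest in replicate 2.

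Of 9 records of other basic helix-loop-helix PAS proteins, without the one at the cycle locus, 8 were found in all libraries (42.3% of the table) and 5 of 7 tested varied (54.5% of the table). The hypoxia-inducible factor 1 alpha records led, with 765, 663 and 479 counts (44.9 ± 12.0 TPM) and 1071, 977 and 835 (42.8 ± 7.11 TPM), both lowest in replicate 3. ARNT, the common partner of this family, stood at 36.3 ± 2.03 TPM (SD, n = 3), well above cycle. None of the 7 averaging 1 CPM or more lay above the others in replicate 3, beside 51.7% of all records.

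Of 12 records matched by names of other kinases and phosphatases, of families that act on clock proteins, 9 were found in all libraries (42.3% of the table) and 7 of 9 varied (54.5% of the table). The scaffold subunit A of phosphatase 2A was the most abundant (223 ± 12.2 TPM), and did not vary beyond counting (adjusted p = 0.0943, chi-square test). Glycogen synthase kinase 3 beta, shaggy in Drosophila, had 529, 500 and 347 counts (36.9 ± 9.36 TPM) and phosphatase PP1 beta 297, 269 and 407 (33.3 ± 5.83 TPM). The former was lowest and the latter highest in replicate 3.

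Of 26 records matched by names of F-box proteins, cullins and their partners, families from which the ligases that degrade clock proteins come, 23 were found in all libraries (42.3% of the table) and 9 of 21 tested varied (54.5% of the table). SKP1, the adaptor of F-box proteins, had 682, 870 and 1164 counts (149 ± 33.0 TPM), and cullin-1, its scaffold, 829, 997 and 1158 (43.9 ± 5.46 TPM). Both were lowest in replicate 1. Cullin-4A, with 1176, 998 and 1020 counts (47.6 ± 5.78 TPM), was highest there.

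Of the output list, the single record was the precursor of pigment dispersing hormone, whose insect counterpart carries the signal of clock neurons. It had 9, 42 and 27 counts, or 0.988, 4.58 and 2.72 TPM, lowest in replicate 1 and highest in replicate 2 (adjusted p = 6.24e-05, chi-square test). The summed TPM of the records matched by neuronal words, not all of which need be neuronal, had the same order (127, 158 and 141). Their summed CPM did not, with 389, 420 and 330 and thus replicate 3 lowest. A CUGBP Elav-like record was the only one of that list at 0. The part of neurons in the level of the hormone precursor was not tested. In none of these lists did a record averaging 10 CPM or more have a library 2-fold apart.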

How the data were processed

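RNA of 3 whole-body pools was enriched on oligo(dT) beads and sequenced on an Illumina instrument. Mapping was done by the authors in CLC Genomics Workbench 12 against the wFleaBase genome, and raw counts per gene record were deposited. They also deposited TPM and RPKM values, and a signal headed CPM, whose divisors equalled the TMM effective sizes computed here. The sources used here give neither the genome version nor the strand setting. Coordinates are those of the deposited table, and the counts together with the RPKM gave each transcript length. Reads of split or overlapping gene models may have been divided between records.

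The members, the gene lists and the tests were chosen with earlier results of these data known. Named genes were all core clock records with counts, the 2 most abundant casein kinase II records and the 3 most abundant records of each further list. TMM and BCV were computed in edgeR 4.0.16 (R 4.3.3) with an intercept-only model, for records averaging 1 CPM or more. A chi-square test of homogeneity compared counts with TMM effective sizes where the mean count was 10 or more, and p-values were adjusted after Benjamini and Hochberg (threshold 0.05). A single group allowed no contrast. The libraries were no duplicates, since 29.0% to 45.0% of tested records differed between any pair. DESeq2 1.42.0 gave alternative size factors. Ratios used a pseudocount of 0.1 on TPM and deviations one of 0.5 on CPM. The chi-square test of homogeneity and the BCV common to all records were tested on simulated data, and the other statistics were not. Python 3.11.15, pandas 2.3.3, numpy 2.4.6, scipy 1.17.1 and matplotlib 3.10.9 were used.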

Additional observations from a re-analysis of the deposited data

How the results depend on the processing

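Among the 3 clock records that overlap no other record, 3 were found in all libraries and 1 varied beyond counting, with a median deviation of −0.29 in replicate 1 and 0.26 in replicate 3. Leaving out each replicate in turn gave 4 to 9 varying records (4 without replicate 1, 9 without replicate 2, 5 without replicate 3) and a median BCV of 0.191 to 0.308. A limit of 1.5-fold gave 2 records with a library apart (casein kinase I gamma-3 and the timeless homolog), and a mean CPM of at least 1 gave 3 (TIMELESS/TIM-1 on scaffold02581 and both larger records on scaffold00704), beside 16.9% and 12.7% of all records. On CPM, not per length, casein kinase I fell below period (−0.12). Over the alternatives to the test of variation, 10 of the 11 records called lost the call at least once, 1 (the timeless homolog) kept it throughout, and none of the 7 not called gained it. DESeq2 size factors, no filter (11 of 20 varying, beside 30.7%) and a mean count of at least 50 (8 of 14, beside 63.8%) left the count of varying records within 1.5 times. Without casein kinase II and the TIMELESS-interacting protein, an alternative chosen after seeing the data, 14 of 18 records were found in all libraries and 10 of 15 varied. Records averaging 10 counts or fewer, among them 3 of the timeless type, are limited by depth. No paired analysis was possible because the series holds 1 group.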

Other observations

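Other records tied to daily rhythms were found by the word circadian in their gene ontology process terms, a choice made after values had been seen. There were 27, of which 4 are clock records described above. Of the other 23, 15 were found in all libraries and 3 of 13 tested varied beyond counting, beside 42.3% of all records found in all libraries and 54.5% of all tested records varying. Of 3 records of protein quiver, known as sleepless in Drosophila for its part in sleep, the most abundant had 290, 203 and 314 counts and was lowest in replicate 2 (adjusted p = 0.000552, chi-square test of homogeneity). The others, with 61, 71 and 92 and with 23, 32 and 40 counts, were lowest in replicate 1 and not called (adjusted p = 0.322 and 0.341). Of BTB/POZ domain-containing protein 9, also linked to sleep in Drosophila, 1 part of a split model had 175, 162 and 130 counts (adjusted p = 0.00132, chi-square test) and the other 460, 390 and 459. The 26S protease regulatory subunit 4 record had 73, 13 and 46 counts (adjusted p = 2.48e-09, chi-square test), lowest in replicate 2.

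Records that did not vary beyond counting included SRR1-like protein, a relative of a plant regulator of rhythms, with 243, 234 and 313 counts, and 2 records of ion transport peptide, a neuropeptide of clock neurons in Drosophila, with 45, 24 and 45 and with 18, 34 and 36 counts. Both parts of a dopamine receptor 2-like record were sparse (1, 0 and 10 counts and 0, 1 and 10).

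Beside the HR3 record with 0, 39 and 7 counts, 2 parts of 1 further split model of that name, picked after their values were seen, had 11, 70 and 31 counts and 1, 27 and 15 counts. The first part overlaps the HR3 record, so their reads may be shared, and the 3 records are not separate evidence of an order. HR38, a different receptor, had 348, 246 and 382 counts and was lowest in replicate 2.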
